A study of Arabidopsis thaliana with 12 samples.

Results

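AT3G16670, AT3G16660 and AT5G22430 are 3 Arabidopsis thaliana genes that the reference annotation describes as Pollen Ole e 1 allergen and extensin family proteins. They were chosen by gene identifier, with earlier results of these data known: AT3G16670 had much lower and AT5G22430 much higher FPKM in clf and lhp1 than in wild type, and AT3G16660 is the neighbour of AT3G16670. All 3 were found among 31554 named loci, each in a locus of its own. RNA was sequenced from whole seedlings of the mutants pkl, clf and lhp1 and of wild type (WT), all 14 days old and grown alike, with 3 libraries for each genotype. PKL (PICKLE) encodes a chromatin remodeller of the CHD3 type. CLF (CURLY LEAF) encodes a methyltransferase that places the Polycomb mark H3K27me3, and LHP1 a protein that binds this mark. The labels name no allele and do not say how the plants of a library were pooled. The authors' tables give 1 FPKM value per genotype (FPKM counts sequenced fragments relative to transcript length and to all mapped fragments). Without values per library no replicate error can be given, and the depth is unknown.

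Ole e 1 is the major allergen of olive pollen, and the proteins named after it form a plant family of small, mostly secreted proteins that share a cysteine-containing domain. In Arabidopsis the family is not confined to pollen. Several members, among them the proline-rich proteins PRP1 to PRP4 and the arabinogalactan proteins AGP30 and AGP31, are cell wall proteins of roots, root hairs and shoots. No specific role is given here to AT3G16670, AT3G16660 or AT5G22430. Polycomb factors keep many genes silent outside the organ or stage in which they are used, and seedlings of clf and lhp1 are known to express floral organ identity genes.

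AT3G16670 and AT3G16660 lie next to each other on chromosome 3 in the same orientation. In the authors' tables (build TAIR10) AT3G16660 covers positions 5676829 to 5677921 and AT3G16670 positions 5681366 to 5683020. The RefSeq annotation of TAIR10.1 places both on the plus strand, at 5676749 to 5678099 and 5681380 to 5682362, with 3280 bases between them that hold 2 annotated long non-coding RNA genes, AT3G03355 and AT3G03365. AT5G22430 lies on the plus strand of chromosome 5, at 7433790 to 7434935 in the tables and 7433790 to 7434953 in RefSeq. Each gene has 2 exons and 1 intron, with a coding sequence of 465 bases in AT3G16670, 543 in AT3G16660 and 519 in AT5G22430. No other gene is assigned to any of these loci, no other locus of the tables overlaps them, and no other RefSeq gene overlaps them, so none of their values is shared with another gene by position.

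The neighbours are also the most alike in sequence. Their coding sequences were identical at 75.8% of 462 aligned bases, against 58.1% of 446 bases between AT3G16670 and AT5G22430 and 53.2% of 491 bases between AT3G16660 and AT5G22430. The longest run shared by the transcripts of AT3G16670 and AT3G16660 was 26 bases. Of 812 distinct 25-base words of AT3G16670, 2 occurred in a transcript of another gene, both in AT3G16660. Of 905 words of AT3G16660, 4 did, 2 in AT3G16670 and 2 in AT2G40000, and of 925 words of AT5G22430 none did. Sequences of this length from the 3 RefSeq transcripts thus nearly always matched 1 gene. The authors' locus of AT3G16670 runs to 5683020, beyond the RefSeq end at 5682362, and the bases between were not compared. The sources used here do not say how the authors divided reads that match several genes.

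The 300 bases before each RefSeq gene start are shown because the neighbours stood low together in clf and lhp1 while AT5G22430 stood high, and because Polycomb factors are known to be recruited through short DNA motifs. Capitals mark matches, on either strand, to the GA repeat GAGAGA, the telobox AAACCCTA or the RY core CATGCA, motifs known from Polycomb recruitment in plants; all other bases are in lower case. The sequences are from RefSeq, build TAIR10.1, plus strand.
AT3G16670, chr3:5681080-5681379: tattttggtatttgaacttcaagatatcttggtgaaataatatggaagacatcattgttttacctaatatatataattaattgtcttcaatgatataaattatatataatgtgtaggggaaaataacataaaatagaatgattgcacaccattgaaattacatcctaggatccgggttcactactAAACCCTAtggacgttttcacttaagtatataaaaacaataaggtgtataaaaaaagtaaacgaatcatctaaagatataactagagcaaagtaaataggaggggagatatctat
AT3G16660, chr3:5676449-5676748: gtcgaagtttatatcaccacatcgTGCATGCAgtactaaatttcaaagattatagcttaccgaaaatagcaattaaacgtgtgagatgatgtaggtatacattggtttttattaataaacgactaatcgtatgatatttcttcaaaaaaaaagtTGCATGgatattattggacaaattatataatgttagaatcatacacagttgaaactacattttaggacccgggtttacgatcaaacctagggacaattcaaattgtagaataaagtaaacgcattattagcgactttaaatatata
AT5G22430, chr5:7433490-7433789: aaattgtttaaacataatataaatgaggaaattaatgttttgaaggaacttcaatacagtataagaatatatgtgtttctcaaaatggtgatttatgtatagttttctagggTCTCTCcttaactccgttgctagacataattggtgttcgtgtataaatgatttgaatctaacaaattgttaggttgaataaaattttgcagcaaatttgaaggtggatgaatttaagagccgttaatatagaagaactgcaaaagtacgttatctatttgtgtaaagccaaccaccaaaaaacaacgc

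AT3G16670 held 1 telobox, its first letter 115 bases before the start, and neither of the other motifs. AT3G16660 held 3 matches to CATGCA at 276, 274 and 146 bases before its start, the first pair overlapping each other, and no telobox. RefSeq lists 2 transcripts of AT3G16660, and the gene start used here is 5676749. The authors' locus, and the transcript whose sequence was compared above, start further on, at 5676829. AT5G22430 held 1 GAGAGA, written TCTCTC on the printed strand, at 188 bases. Among 27438 promoters of protein-coding genes of the same length, 5.21% held the telobox, 10.3% held CATGCA and 23.6% held GAGAGA. The upstream regions of the neighbours were partly alike: 61 of 77 aligned bases were identical (79.2%) between 183 and 103 bases before AT3G16670 and between 131 and 53 bases before AT3G16660.
AT3G16670 stretch: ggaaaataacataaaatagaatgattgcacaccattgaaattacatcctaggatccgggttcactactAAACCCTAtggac
AT3G16660 stretch: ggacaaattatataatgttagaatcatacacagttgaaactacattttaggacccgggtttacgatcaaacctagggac

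The telobox of AT3G16670 falls within this stretch, and the corresponding stretch of AT3G16660 carries no exact match. A match is only a run of letters, and no binding or histone mark was measured in these libraries. Whether any of the motifs bears on the levels was not tested.

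In WT seedlings the neighbours were abundant and AT5G22430 was nearly silent. Over 29230 nuclear loci holding 1 gene, AT3G16670 ranked 170 and AT3G16660 ranked 410 by FPKM in WT, and AT5G22430 ranked 17420. In pkl the ranks were 161, 502 and 17057. In clf AT3G16670 ranked 5851, AT3G16660 ranked 1775 and AT5G22430 ranked 7554, and in lhp1 the ranks were 10951, 7086 and 2376.

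AT3G16670 stood at 636 FPKM in pkl, 23.4 in clf and 7.81 in lhp1, against 584 in WT. The order of its levels was thus pkl, WT, clf and lhp1, with the first pair close together and a wide gap below them. Its log2 fold change over WT was 0.12 in pkl, -4.64 in clf and -6.22 in lhp1, so that clf kept 4.01% and lhp1 1.34% of the WT level. The clf value was 3.0 times the lhp1 value.

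AT3G16660 stood at 286 FPKM in pkl, 81.5 in clf and 17.9 in lhp1, against 334 in WT. Its level was highest in WT, followed by pkl, clf and lhp1. Its log2 fold change over WT was -0.22 in pkl, -2.03 in clf and -4.22 in lhp1, leaving 24.4% of the WT level in clf and 5.35% in lhp1. The clf value was 4.56 times the lhp1 value.

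Which neighbour was the more abundant depended on the genotype. The ratio of AT3G16670 to AT3G16660 was 2.22 in pkl, 0.287 in clf and 0.437 in lhp1, against 1.75 in WT. AT3G16670 was thus the more abundant neighbour in pkl and WT and the less abundant one in clf and lhp1. Summed over both genes the level was 922 FPKM in pkl, 105 in clf and 25.7 in lhp1, against 918 in WT.

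AT5G22430 ran the other way. It stood at 0.401 FPKM in pkl, 16.5 in clf and 60.9 in lhp1, against 0.272 in WT. The order from the top was lhp1, clf, pkl and WT, with pkl and WT both below 1 FPKM. Its log2 fold change over WT was 0.56 in pkl, 5.93 in clf and 7.81 in lhp1. On the log2(FPKM + 1) scale, which shrinks the change of a gene this low in WT, the same differences were 0.14, 3.79 and 5.61. The lhp1 value was 3.68 times the clf value, and in lhp1 AT5G22430 exceeded the neighbours' sum 2.37 times over.

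**Figure D1:**
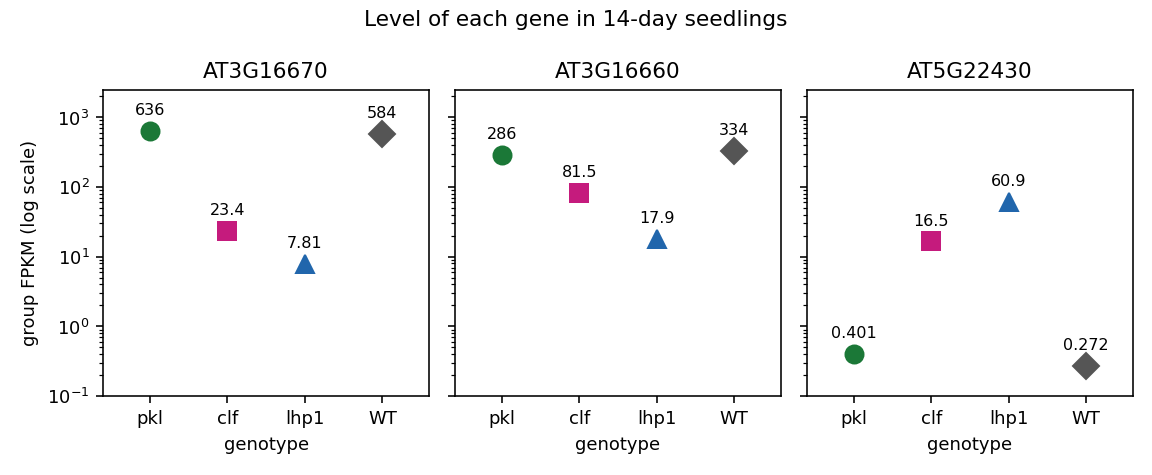
Group FPKM of AT3G16670, AT3G16660 and AT5G22430 in pkl, clf, lhp1 and WT, on a logarithmic axis with 1 point per genotype and no error, since 1 value per group was deposited. AT3G16670 and AT3G16660 sit high in pkl and WT and low in clf and lhp1, lowest in lhp1 at 7.81 and 17.9 FPKM, while AT5G22430 is highest in lhp1 at 60.9 FPKM.

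These contrasts chose the genes, so their calls are given as a description. With status OK and q under 0.05 in the authors' deposited table as the rule for a call, AT3G16670 and AT3G16660 were called lower and AT5G22430 higher in both clf and lhp1. In clf 5.28% of 19370 tested named loci were called lower and 7.15% higher, and in lhp1 10.6% and 11.1% of 19509. In pkl none of the 3 was called, where 13.5% of 19365 tested loci were. AT5G22430, below 1 FPKM in both pkl and WT, carried the status NOTEST there, and no reason is given. The authors' deposited Cuffdiff p in pkl, read as that of a normal test, implied 95% intervals of the log2 fold change. These ran from -0.13 to 0.37 for AT3G16670 and from -0.46 to 0.02 for AT3G16660. Whether the Cuffdiff test has that form was not checked, so the intervals are rough and stand for no replicate error. Whether clf and lhp1 differ from each other was not tested, because the tables compare each mutant with the same WT value, and no spread between libraries is at hand to set against the order of levels.

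On chromosome 3 the tested genes around the pair had log2 fold changes between -0.58 and 0.74, while 2 untested loci beyond AT3G16670, AT3G16680 and AT3G16712, were also lower in clf and lhp1 than in WT. Of the 5 named loci on each side of AT3G16670, 9 are not AT3G16660, and 7 of these were tested. None was called in pkl or clf by the authors' Cuffdiff test, and 1 was called lower in lhp1, where 10.6% of all tested loci were; at an unadjusted p under 0.05 there were 1 higher and 0 lower in pkl, 1 and 1 in clf and 1 and 2 in lhp1. The lhp1 call was TCTP (AT3G16640), for the translationally controlled tumor protein, at 2298 FPKM in lhp1 against 3073 in WT. AT3G16650, a WD40 repeat gene 1391 bases before AT3G16660, stood at 6.55 FPKM in pkl, 7.87 in clf and 4.66 in lhp1, against 4.71 in WT. On the other side SWEET16 (AT3G16690), for a vacuolar sugar transporter, lies 289 bases beyond the authors' locus of AT3G16670 and stood at 16.8 FPKM in pkl, 11.2 in clf and 12.5 in lhp1, against 13.9 in WT. AT3G16680, which shares that position, was at 0.354 FPKM in pkl, 0.284 in clf and 0.0819 in lhp1, against 0.458 in WT, and was not tested; its log2 fold change was -0.69 in clf and -2.49 in lhp1. AT3G16712, of unknown function and 6858 bases away, stood at 7.07 FPKM in pkl and 2.70 in clf and was listed at 0 in lhp1, against 4.39 in WT, and was not tested either. The other tested neighbours, the shared locus of AT3G16610 and TOC120 (AT3G16620), KINESIN-13A (AT3G16630), AT3G16700 and AT3G16710, had log2 fold changes between -0.58 and 0.36. The window of AT3G16660 held the same 7 tested neighbours with the same 0, 0 and 1 calls, and AT3G16600, below 0.01 FPKM in every genotype and not tested.

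Around AT5G22430 the adjacent genes were not called in clf, while 1 gene further off rose in clf and lhp1. Of 10 neighbours 7 were tested, with 1 called higher in pkl, 1 higher in clf and 2 higher and 1 lower in lhp1. Of all tested loci 6.71% were called higher in pkl, 7.15% in clf and 11.1% in lhp1, where 10.6% were called lower. At an unadjusted p under 0.05, 3 were higher and 0 lower in pkl, 1 and 1 in clf and 2 and 1 in lhp1. AT5G22460, annotated as an alpha/beta-hydrolase and 8572 bases downstream, stood at 4.90 FPKM in pkl, 21.3 in clf and 28.6 in lhp1, against 5.14 in WT. It was called higher in clf, with a log2 fold change of 2.05, and in lhp1, with 2.48 (q = 0.000661 in both of the authors' deposited tables). AT5G22440, a ribosomal L1p/L10e gene only 140 bases downstream, was at 132 FPKM in pkl, 102 in clf and 141 in lhp1, against 109 in WT, and was called higher in lhp1 and not called in pkl or clf. It lies on the opposite strand, facing AT5G22430 end to end, and the strand setting of the counting is not stated. AT5G22450, between these, was not called in any mutant. On the other side FAR7 (AT5G22420), for a fatty acid reductase, was listed at 0 in every genotype. RHS18 (AT5G22410), a root hair gene, rose to 42.8 FPKM in pkl, against 13.6 in WT, and AT5G22390 fell to 0.863 in lhp1, against 1.82 in WT. The rest were AT5G22400 and AT5G22480, both tested and not called, and NAC090 (AT5G22380) and AT5G22470, both below 0.3 FPKM.

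**Figure D2:**
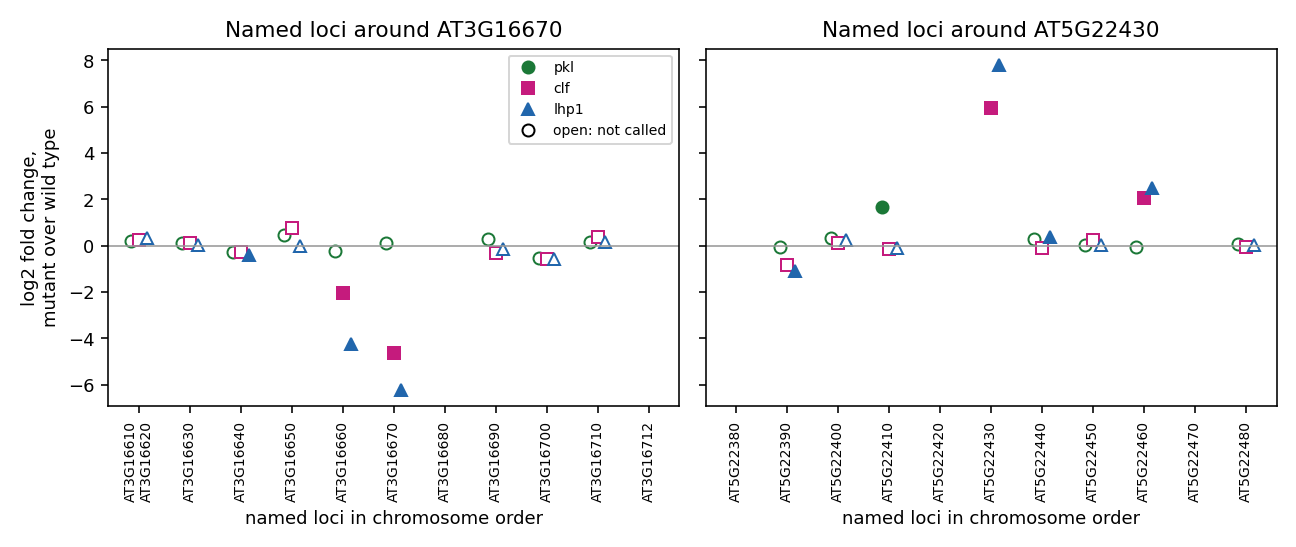
Log2 fold change over WT of the named loci around AT3G16670 and AT5G22430, in chromosome order, with circles for pkl, squares for clf and triangles for lhp1; filled symbols were called and untested loci have none. Among the tested loci around AT3G16670, AT3G16660 and AT3G16670 alone lie at -2.03 or lower in clf and lhp1, while on chromosome 5 AT5G22430 and AT5G22460 both stand above 2 in clf and lhp1.

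The Ole e 1 family outside the 3 genes moved far less, but AT3G16670 and AT5G22430 had been chosen for large changes in clf and lhp1. That difference was thus set by the choice. The family was taken as the 27 genes whose RefSeq product names Ole e 1 and 7 further genes of a hand-written list (AGP30, AGP31, RHS13 and PRP1 to PRP4), 34 in all and 31 without the 3 genes above. Of these, 30 had a locus of their own and AT5G54855 shared one with AT5G54860. Of the 30, 24 were tested in every mutant, and the other 6 stayed below 1 FPKM in all genotypes, among them AT5G45880 and AT1G29140. The tested 24 ran from 1.23 FPKM (AT4G18596) to 737 FPKM (PRP4) in WT, 8 of them at 100 FPKM or more. In WT AT3G16670 ranked 3 and AT3G16660 ranked 5 among the 34, below PRP4 and AT1G78040 and, for AT3G16660, also below AGP31, which stood at 367 FPKM. AT5G22430 ranked 28 in WT and 10 in lhp1, where AT3G16670 ranked 22 and AT3G16660 ranked 20. Summed, the 3 genes made up 25.1% of the FPKM of the family's own loci in pkl, 4.60% in clf and 3.65% in lhp1, against 25.1% in WT.

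In clf 1 of the 24 tested relatives rose and 5 fell, and in lhp1 0 rose and 4 fell, by the authors' Cuffdiff test. As shares these are 4.17% and 20.8% of the 24 in clf and 0% and 16.7% in lhp1, beside the 7.15% and 5.28%, and 11.1% and 10.6%, of all tested loci given above. At an unadjusted p under 0.05 the counts were 2 and 8 in clf and 0 and 5 in lhp1. These falls came largely from the hand-listed genes: all 4 in lhp1 were PRP1 to PRP4, and 3 of the 5 in clf were PRP3, PRP4 and RHS13. Of the 17 tested relatives found by annotation alone, 1 rose and 2 fell in clf (5.88% and 11.8%) and 0 rose and 0 fell in lhp1, where 0 and 1 passed at an unadjusted p under 0.05. Log2 fold changes of the 24 ran from -0.83 to 0.64 in clf and from -1.35 to 0.28 in lhp1. The larger values of AT3G16670 and AT5G22430 are those by which these genes were chosen. The median of the 24 on the log2(FPKM + 1) scale was -0.11 in clf and -0.17 in lhp1. Over all tested loci it was -0.01 and 0.03 on the same scale.

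PRP4, for a proline-rich wall protein, was lower in all 3 mutants, at 437 FPKM in pkl, 494 in clf and 352 in lhp1, against 737 in WT. PRP3, of root hair walls, stood at 240 FPKM in pkl, 97.2 in clf and 102 in lhp1, against 130 in WT, a rise in pkl and a fall in the other two. PRP2 fell to 35.4 FPKM in pkl and 18.2 in lhp1, against 46.6 in WT, and stood at 47.2 in clf. These were moderate shifts of abundant wall protein genes. PRP1 stood at 79.6 FPKM in pkl and 23.5 in lhp1, against 36.7 in WT, called higher and lower in turn. AT5G10130 stood at 41.3 FPKM in pkl and 12.2 in clf, against 21.8 in WT, again called higher in pkl and lower in clf. RHS13, a root hair gene, rose to 150.0 FPKM in pkl and fell to 81.1 in clf, against 116 in WT. AT2G27385 was the single relative called higher in clf, at 152 FPKM against 106 in WT, and it fell to 56.2 in pkl. AT2G47540 fell to 18.3 FPKM in clf, against 27.0 in WT.

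In pkl, where the 3 genes were not called, 6 relatives rose and 3 fell of 24, or 25% and 12.5%, beside 6.71% and 6.75% of all tested loci, with a median of 0.14 against 0.01. With the annotation alone 2 rose (MOP10 and AT5G10130) and 1 fell (AT2G27385) of 17, or 11.8% and 5.88%, since PRP1, PRP3, RHS13 and AGP30 among the rises and PRP2 and PRP4 among the falls came from the hand-written list. The largest rise was that of MOP10, at 131 FPKM in pkl against 57.0 in WT, a log2 fold change of 1.21. AGP30, for a root arabinogalactan protein, rose to 7.58 FPKM, against 3.58 in WT. PRP1, AT5G10130, PRP3 and RHS13, given above, were the others that rose, and PRP2, PRP4 and AT2G27385 those that fell.

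Close pairs of family genes were few, and among the other pairs 1 gene was called, AT2G47540, lower in clf. Within 10 kb of each other lay only AT3G16660 with AT3G16670, AT2G47530 with AT2G47540 (778 bases apart) and AT2G41390 with AT2G41400 (1260 bases apart). AT2G47530 stood at 5.63 FPKM in pkl, 3.15 in clf and 4.41 in lhp1, against 4.19 in WT, and was not called. AT2G47540, called lower in clf with a log2 fold change of -0.56 (q = 0.0138 in the authors' deposited Cuffdiff table), stood at 35.2 FPKM in pkl and 29.2 in lhp1, against 27.0 in WT, and was called in neither. AT2G41390 and AT2G41400 were listed at 0 in every genotype.

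**Figure D3:**
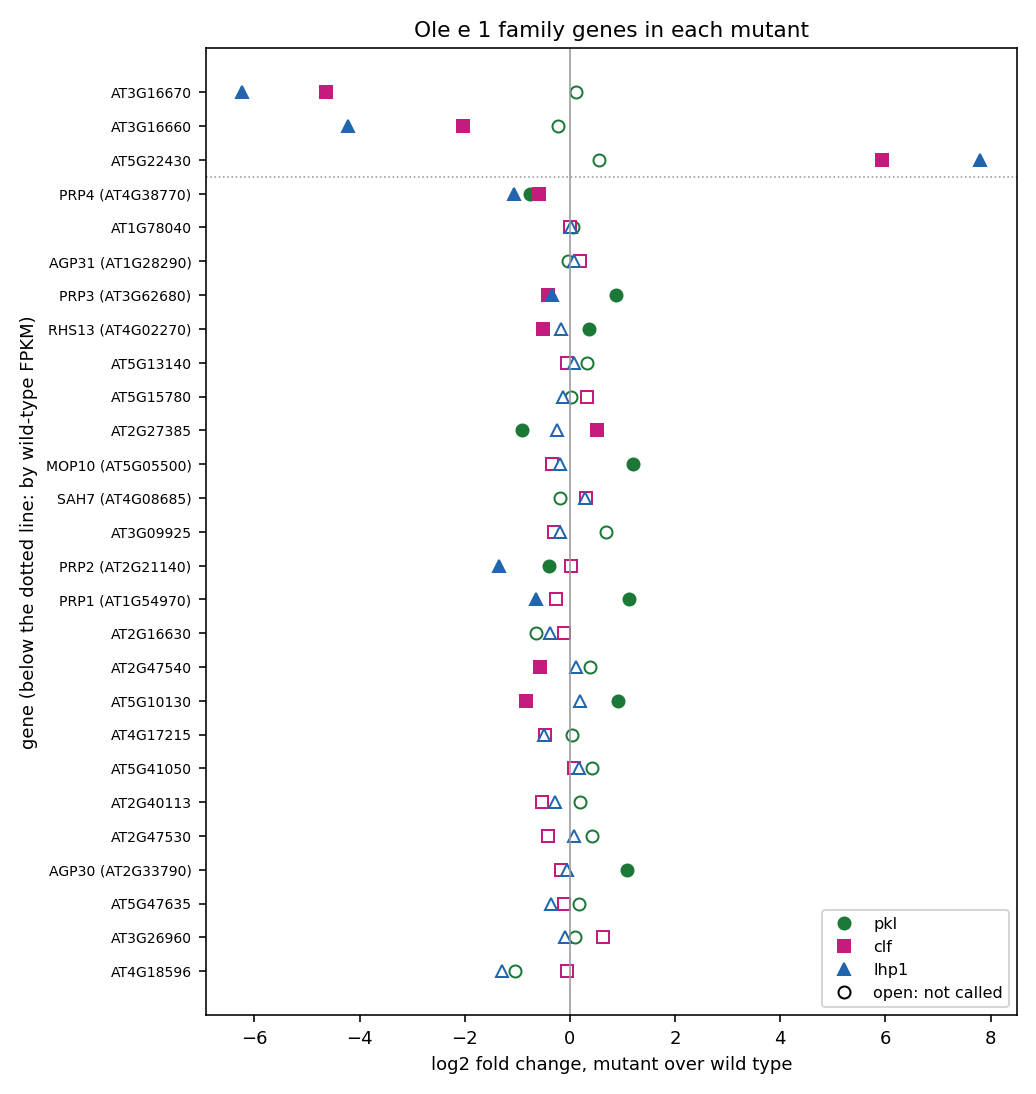
Log2 fold change over WT of the 3 genes, above the dotted line, and of the 24 tested relatives with a locus of their own, ordered by WT FPKM, with circles for pkl, squares for clf and triangles for lhp1; filled symbols were called. The relatives lie between -1.35 and 1.21. AT3G16670 reaches -6.22 and AT5G22430 reaches 7.81 in lhp1, and both were chosen for large changes.

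To find genes with a like pattern, the 3 values of log2((FPKM + 1) in the mutant/(FPKM + 1) in WT) were compared over 16715 nuclear loci of 1 gene with at least 1 FPKM in some genotype, by Euclidean distance. All 3 values share the WT level, so likeness here is a description. The locus nearest to AT3G16670 was the defensin-like gene AT3G05730, which lay 2.43 away, at 997 FPKM in pkl, 58.1 in clf and 62.2 in lhp1, against 844 in WT. AT3G16660 was the next at 3.21, followed by the protein phosphatase 2C gene AT5G02760, by AT5G57760 and by BEE3 (AT1G73830), for a bHLH factor of brassinosteroid response, at up to 3.69. AT3G16660 had closer company. AT5G02760 lay 0.58 away, at 34.1 FPKM in pkl, 10.7 in clf and 2.93 in lhp1, against 47.3 in WT, and AOC1 (AT3G25760), for allene oxide cyclase of jasmonate synthesis, lay 0.70 away, at 175 FPKM in pkl, 72.8 in clf and 9.17 in lhp1, against 185 in WT. BEE3, AACT1 (AT5G61160) and RGF9 (AT5G64770) followed, at up to 1.17. AT5G57760, BEE3 and RGF9 were also called lower in pkl, where AT3G16670 and AT3G16660 were not called. AT3G05730, AT5G02760, AOC1 and AACT1 were not called there either.

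Those nearest to AT5G22430 included floral MADS-box genes. AP3 (AT3G54340), for a factor of petal and stamen identity, lay 1.17 away, at 0.446 FPKM in pkl, 7.62 in clf and 37.1 in lhp1, against 0.225 in WT. SEP3 (AT1G24260), for a partner of the floral organ factors, lay 1.46 away, and the homeobox-leucine zipper gene ATHB54 (AT1G27045) 1.49 away. LTP3 (AT5G59320) and LTP4 (AT5G59310), for lipid transfer proteins, followed at 1.88 and 2.09. Their sequences were not compared here, and their reads may be hard to part. In pkl SEP3 was called lower, with a log2 ratio of -0.69, and LTP3 and LTP4 higher, with 1.05 and 1.85. AT5G22430, at 0.14, was not tested there, and AP3 and ATHB54 were not called. With a pseudocount of 0.1 the lists changed, and of each 5 only 2 were shared for AT3G16670 (AT3G05730 and AT3G16660), 2 for AT3G16660 (AT5G02760 and AOC1) and 1 for AT5G22430 (AP3). The nearest locus then was AT4G28088 for AT3G16670, at a distance of 1.57, AT2G35345 for AT3G16660, at 0.33, and AT3G06962 for AT5G22430, at 1.03. AT4G28088 stood at 10.6 FPKM in pkl and was listed at 0 in clf and lhp1, against 4.48 in WT, and was called in no mutant, so that its distance depends on the pseudocount. The same holds for AT2G35345, listed at 0 in lhp1, and AT3G06962, listed at 0 in pkl and WT, both called in no mutant.

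Organ markers differed between the genotypes, and their part in the results was not tested. In whole seedlings, fewer cells of a type and less RNA per cell cannot be told apart. Of 12 root markers, 4 rose and 0 fell in pkl, 0 rose and 5 fell in clf, and 1 rose and 1 fell in lhp1, by the authors' Cuffdiff test (at an unadjusted p under 0.05, 6 and 1, 0 and 6, and 1 and 2). As shares these are 33.3% and 0% in pkl, 0% and 41.7% in clf and 8.33% each way in lhp1, beside 6.71% and 6.75%, 7.15% and 5.28%, and 11.1% and 10.6% of all tested loci. Of the falls in clf, that of PLT2 (AT1G51190) passed narrowly, at q = 0.04998 by the Cuffdiff test, with 0.423 FPKM against 0.861 in WT. The calls of root markers were thus falls in clf and rises in pkl, and their share was near the background in lhp1. Their summed level was 2099 FPKM in pkl, 2170 in clf and 3614 in lhp1, against 2062 in WT, most of it from PYK10, a root glucosidase gene at 1905, 2061 and 3479 FPKM in the mutants, against 1916 in WT. The median log2 ratio with a pseudocount of 1 was 0.25 in pkl, -0.37 in clf and 0.07 in lhp1. The lowest log2 fold change of a root marker was -1.68 in clf and -1.46 in lhp1, both that of NRT2.1. This gene was low throughout, at 0.545 FPKM in clf and 0.637 in lhp1, against 1.75 in WT. Of 8 photosynthetic shoot markers 0 rose and 1 fell in pkl, 0 rose and 1 fell in clf, and 1 rose and 4 fell in lhp1 (unadjusted, 2 and 1, 1 and 2, and 1 and 5), or 12.5% lower in pkl and in clf and 50% lower in lhp1, with 12.5% higher in lhp1. Of the falls in lhp1, that of GAPA (AT3G26650) is from a locus shared with another gene. Another passed narrowly, at q = 0.0446 by the Cuffdiff test. With 8 genes, the single calls in pkl and clf say little beside those backgrounds. Their sums were 28338 FPKM in pkl, 21151 in clf and 18632 in lhp1, against 25458 in WT.

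Of 10 floral organ genes, 9 rose and 0 fell in both clf and lhp1, or 90% beside 7.15% and 11.1% of all tested loci, and 0 rose and 1 of 7 tested fell in pkl, where 1 was higher and 2 were lower at an unadjusted p under 0.05. Their sum was 9.52 FPKM in pkl, 246 in clf and 423 in lhp1, against 15.3 in WT, most of it from SEP3, at 166 FPKM in clf and 232 in lhp1. Single genes differed in order: 7 were higher in lhp1 than in clf, as AT5G22430 was, and 3 were higher in clf. These were AG, at 31.1 FPKM in clf and 11.0 in lhp1, SHP2, at 16.9 and 15.9, and STK, at 1.59 and 1.07. None of the 10 was at 0 in any genotype. The 12 anther and pollen markers were nearly absent: they summed to 0.0269 FPKM in pkl, 0.226 in clf and 1.01 in lhp1, against 0.140 in WT, with 10, 8 and 9 of them at 0 in the mutants and 8 in WT. Most of the lhp1 sum was SPL (AT4G27330), an early anther regulator, at 0.898 FPKM and listed at 0 in WT; it was the 1 marker of that list tested in lhp1 and was called higher, and none was tested in pkl or clf. The pollen genes VGD1 and MGH3 were at 0 in every genotype.

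**Figure D4:**
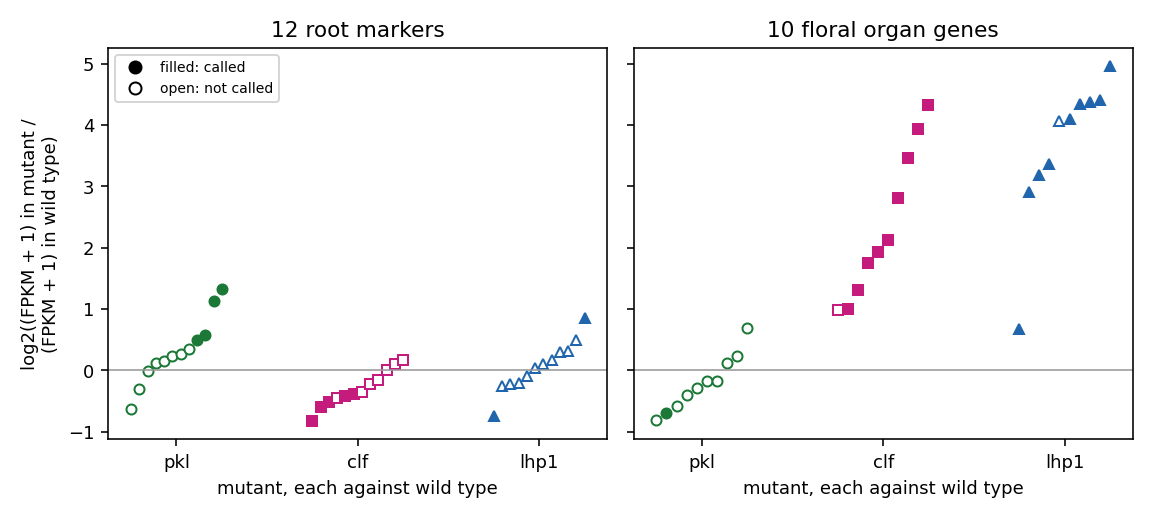
Log2 ratio of FPKM + 1 over WT for 12 root markers and 10 floral organ genes in pkl, clf and lhp1, 1 symbol per gene sorted by value, filled where called and open where not called or not tested. In clf 5 root markers are called lower and 0 higher, while PYK10, SHR and SCR lie at or slightly above WT and are not called. Of the 10 floral organ genes, 9 are called higher in each of clf and lhp1.

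The mutated genes themselves were low in the libraries named for them. PKL stood at 6.83 FPKM in pkl against 20.8 in WT, CLF at 0.264 in clf against 8.37 in WT, not called by the authors' test, and LHP1 was listed at 0 in lhp1, against 12.1 in WT. The median log2 fold change of expressed nuclear loci over WT was 0.02 in pkl, -0.01 in clf and 0.02 in lhp1, on a scale that is itself set by all mapped fragments.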

How the data were processed

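Per the submitters' processing notes, TopHat, Cufflinks 2.1.1, Cuffdiff 2.1.1 and build TAIR10 were used; no source used here gives the strand setting or the normalisation. Per the file headers, the authors deposited gene-level Cuffdiff tables with 1 FPKM value per group. Each deposited p-value and q-value is that of the same Cuffdiff comparison. Over how many tests q was adjusted is not stated. A Cuffdiff p of 5e-05 carried the same q of 0.000661 in clf and in lhp1, as an adjustment over the tables together would give. Nothing in the labels says that libraries came from separate cultures, so p-values may measure technical spread.

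Log2 fold changes were computed from the deposited FPKM (pandas 2.3.3, NumPy 2.4.6); the depth is unknown. A call required status OK and q under 0.05. Standard errors were implied by the deposited p through the normal quantile (SciPy 1.17.1). Of 28809 single-gene nuclear loci, 28808 overlapped the same gene in RefSeq TAIR10.1, and none passed a chromosome end, so sequences were read from that build; all 34 family identifiers matched. Coding sequences were aligned globally and promoters locally (Biopython 1.88). The adjustment and motif search were checked on simulated data.

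Members, lists and rules were chosen with earlier results of these data known. Named were relatives called in at least 2 mutants or among the 4 largest called changes of a mutant, 5 neighbours on each side, the 5 nearest patterns and abundant markers; NRT2.1, AG, SHP2, STK, SPL, AT4G28088, AT2G35345, AT3G06962, VGD1, MGH3, AT4G18596, AT1G78040, AGP31, AT5G45880, AT1G29140 and the chromosome 2 pairs were picked after their values were seen. Alternatives were other pseudocounts and scalings, a q of 0.01, adjustment within each table, a minimum of 1 FPKM, shared loci and the annotation alone.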

Additional observations from a re-analysis of the deposited data

How the results depend on the processing

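No paired analysis was possible because the tables hold 1 value per group and no library columns, and no replicate could be left out for the same reason. The log2 fold changes of AT3G16670 and AT3G16660 in all 3 mutants, and those of AT5G22430 in clf and lhp1, kept their direction with a pseudocount of 1 or 0.1, after centring on the median and after rescaling to the nuclear sum. AT5G22430 in clf was 3.79 with a pseudocount of 1, against 5.93 without, by construction of the scale. In pkl AT5G22430, which was not tested, was 0.14 with a pseudocount of 1, 0.43 with 0.1, 0.54 centred and 0.53 rescaled, against 0.56. With the annotation alone, which drops the 7 hand-listed relatives, 2 relatives rose and 1 fell in pkl, 2 fell in clf and 0 fell in lhp1, against 6, 3, 5 and 4 (the cause is the smaller list, 17 tested genes against 24). A q under 0.01, adjustment within each table, the minimum of 1 FPKM and counting shared loci each kept every one of the 6 family counts within 1.5 times. FPKM below 1, as of AT5G22430 in pkl and WT, rests on few fragments, and the fold changes from it are the least certain.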
